A study of Mus musculus with 24 samples.

Results

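In the livers of mice on a methionine- and choline-deficient (MCD) diet a small set of transcripts was called as sex-biased. These genes, with the liver functions they serve, are described here. A missing call on MCD does not show that a sex bias was lost. Of the 24 arrays of the series, the 12 from MCD-fed animals were compared, 6 from males (XY) and 6 from females (XX), with genotype as a covariate, over 23657 autosomal genes. Each sex held 3 arrays of HepCAV1ko mice, in which floxed Cav1 is cut by a Cre recombinase under the albumin promoter and so in hepatocytes alone, and 3 arrays of HepCAV1wt mice, which the study's methods describe as floxed littermates without Cre. All of these animals were fed MCD for 4 weeks from the age of 8 weeks and were 12 weeks old, and the RNA came from whole liver. The other 12 arrays, from animals of the same genotypes, sexes and age on the control diet for 4 weeks, served to show which sex differences were also present without MCD. Fewer cells of a type and less RNA per cell cannot be told apart in such bulk samples.

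The rodent liver is among the most sexually dimorphic organs. Growth hormone is secreted in pulses in males and more evenly in females, and hepatocytes read this pattern through the growth hormone receptor, the kinase JAK2 and the transcription factor STAT5b, which together set sex-specific programmes of cytochromes P450, sulfotransferases, transporters and secreted proteins. The enzymes concerned hydroxylate or conjugate steroids, bile acids, fatty acids and drugs. Feeding MCD blocks phosphatidylcholine synthesis and the export of lipid from hepatocytes and is a standard model of steatohepatitis.

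Values are log2 expression as the authors normalised it, so that a difference of 1 is a doubling, and a difference is always given as males minus females. Within each MCD group the arrays were alike (Pearson correlations of 0.981 to 0.991 across genes), and in all 24 arrays 4 transcripts of the sex chromosomes fitted the sex given by the label. The hepatocyte markers were at a mean of 12.50 to 12.58 in the male and 12.46 to 12.57 in the female arrays, against 3.83 for the median gene on MCD. Cav1, the targeted gene, lay between 3.95 and 4.41 in all 4 MCD groups, so that whole-liver values did not tell the genotypes apart.

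On MCD, 89 autosomal genes differed between the sexes at an adjusted p under 0.05 (limma), which was 0.376% of those tested. Of these, 36 were higher in males (0.152%) and 53 in females (0.224%), and 50 differed at least 2-fold, 20 of them higher in males and 30 in females. Measured differences were at least 8-fold for 9 genes higher in females and for 0 higher in males. The mean of the lower sex lay under the median gene (3.83) for most of those 9. The same held for Cyp4a12a, the largest difference in males, and for Elovl3, Hsd3b5, Scara5, Cyp4a12b and Serpina12, among others. Such folds are set against dim signals with no detection call, so they may understate the difference and their order is not firm. For 81 of the 89 the 6 male arrays and the 6 female arrays did not overlap, as was the case for 199 genes of all tested (0.841%). The median difference over all autosomal genes was 0.01. A single fit over all 24 arrays gave 63 genes higher in males and 62 in females, so that the excess of female-biased genes depended on the fit. At an unadjusted p under 0.05 there were 1966 genes (8.31%), 999 higher in males (4.22%) and 967 in females (4.09%). The same fit on the control-fed arrays called 686 genes (2.9%), 301 higher in males (1.27%) and 385 in females (1.63%). Without HepCAV1wt MCD male replicate 2 the MCD counts were 25 and 33, and without HepCAV1ko MCD male replicate 2 the female count was 35.

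Among genes higher in males, the largest measured differences were those of single enzymes of fatty acid, steroid and bile acid metabolism, in an order that is not firm. Cyp4a12a, the arachidonic acid hydroxylase typical of male mouse liver, ranged from 3.42 to 6.79 in MCD males (median 5.34) and from 2.22 to 2.71 in MCD females (median 2.41). All male arrays stood above all female arrays, although the males were widely spread. The difference was 2.87 (SE 0.38, adjusted p = 0.0021), or 7.31-fold. Its neighbour and close relative Cyp4a12b differed by 1.27 (SE 0.16, adjusted p = 0.0017). Elovl3, an elongase of very long chain fatty acids, ranged from 5.18 to 7.34 in males (median 6.02) and from 2.97 to 4.10 in females (median 3.43), again without overlap. It differed by 2.83 (SE 0.28, adjusted p = 0.00012). Hsd3b5, a steroid dehydrogenase of male liver, ranged from 3.98 to 6.08 in males (median 5.11) and from 1.85 to 2.66 in females (median 2.18), a difference of 2.82 (SE 0.27, adjusted p = 9.2e-05).

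Cyp7b1 and Cyp2d9 were expressed well above the median gene in both sexes and were higher in males. Cyp7b1, the oxysterol hydroxylase of the alternative pathway of bile acid synthesis, ranged from 7.65 to 9.10 in males (median 8.29) and from 5.83 to 6.87 in females (median 6.35). The difference of 1.99 (SE 0.22, adjusted p = 0.00037) was 3.97-fold. Cyp2d9, a testosterone hydroxylase, ranged from 8.18 to 8.76 in males (median 8.48) and from 6.47 to 7.52 in females (median 6.77), a difference of 1.61 (SE 0.17, adjusted p = 0.00021). Sult2a8, the member of the sulfotransferase family that was higher in males, ranged from 8.89 to 9.77 against 7.55 to 8.67 in females and differed by 1.28 (SE 0.17, adjusted p = 0.0023). The carboxylesterase Ces3a differed by 0.75 (SE 0.11, adjusted p = 0.0074), with male and female arrays that overlapped.

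Of 25 complement components 3 were higher in males, and of 16 Serpina protease inhibitors 1 was. The complement component C6, part of the pore that complement inserts into membranes, ranged from 7.96 to 8.66 in males (median 8.01) and from 6.04 to 6.50 in females (median 6.22), a difference of 1.90 (SE 0.12, adjusted p = 6.8e-07). C8b and C8a, subunits of the same pore, differed by 0.81 (SE 0.09, adjusted p = 0.00072) and 0.83 (SE 0.15, adjusted p = 0.029). All 3 called complement genes therefore belonged to the terminal pore, and C8a missed the threshold when any 1 of 5 of the 12 arrays was left out (adjusted p up to 0.0884). Scara5, a scavenger receptor that takes up ferritin, ranged from 4.63 to 5.74 in males and from 3.18 to 4.06 in females and differed by 1.73 (SE 0.20, adjusted p = 0.00072). Egfr, the receptor of epidermal growth factor, which growth hormone is known to raise in liver, ranged from 9.54 to 11.06 in males (median 10.08) and from 8.30 to 9.26 in females (median 8.73). It differed by 1.41 (SE 0.23, adjusted p = 0.011) and was the called gene of 22 measured in growth hormone and STAT5 signalling. The serpin Serpina12 (vaspin) differed by 1.19 (SE 0.17, adjusted p = 0.0041), the matrix proteoglycan Omd by 1.37 (SE 0.21, adjusted p = 0.008) and the NADPH oxidase Nox4 by 1.08 (SE 0.17, adjusted p = 0.011).

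**Figure D1:**
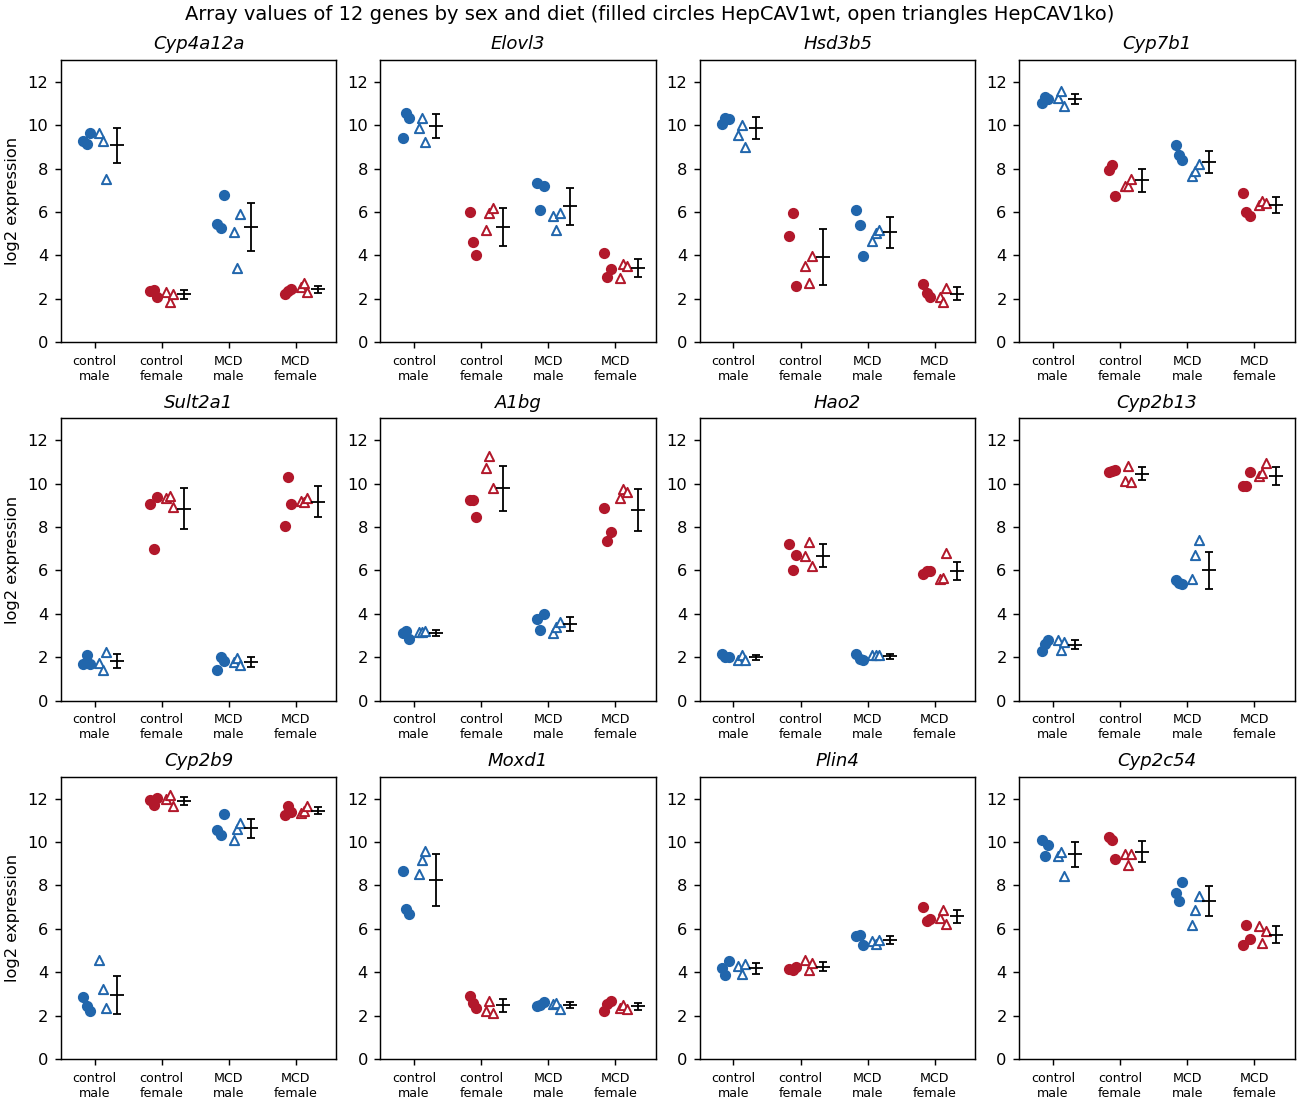
Log2 expression of 12 genes in the 24 arrays by diet and sex, with filled circles for HepCAV1wt, open triangles for HepCAV1ko and a black bar for the mean and SD of 6 arrays. Sult2a1 in MCD males lies between 1.41 and 1.99 and in MCD females between 8.04 and 10.28, while Cyp2b9 in MCD males lies between 10.11 and 11.31.

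Sulfotransferases, which attach sulfate to steroids, bile acids and other small molecules, gave the largest sex differences on MCD. Of 19 measured members, 6 were higher in females and 1 in males. Sult2a1 ranged from 1.41 to 1.99 in MCD males (median 1.80) and from 8.04 to 10.28 in MCD females (median 9.16), a difference of -7.40 (SE 0.27, adjusted p = 9e-10), or 169-fold. Sult2a2 ranged from 1.72 to 3.46 in males (median 2.26) and from 9.22 to 10.50 in females (median 9.83), a difference of -7.33 (SE 0.30, adjusted p = 3.8e-09). Male values of both lay under the median gene, so these folds are set against dim signals. Sult2a5 ranged from 2.05 to 2.27 in males and from 5.80 to 6.67 in females and differed by -3.98 (SE 0.13, adjusted p = 4.1e-10). Sult2a3 ranged from 2.98 to 4.47 in males and from 7.71 to 9.13 in females and differed by -4.46 (SE 0.26, adjusted p = 2.9e-07). These genes are neighbours on chromosome 7 and share much of their sequence, so part of the signal of each may come from another. Sult3a2 and Sult3a1 were less even among females, at 2.53 to 6.69 and 2.41 to 5.27, against 1.81 to 2.17 and 1.63 to 2.01 in males. They differed by -3.05 (SE 0.59, adjusted p = 0.037) and -2.11 (SE 0.41, adjusted p = 0.042), and each call was lost when any 1 of 9 of the 12 arrays was left out, with adjusted p up to 0.106 and 0.119.

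A1bg, a plasma glycoprotein of the immunoglobulin superfamily that in mouse liver is typical of females, ranged from 3.12 to 3.98 in MCD males (median 3.50) and from 7.37 to 9.75 in MCD females (median 9.09). The difference was -5.26 (SE 0.33, adjusted p = 4.9e-07), or 38.3-fold against a male median under that of all genes (3.83). Hao2, a peroxisomal oxidase of hydroxy acids, ranged from 1.85 to 2.14 in males (median 2.10) and from 5.62 to 6.78 in females (median 5.90), a difference of -3.93 (SE 0.16, adjusted p = 3.8e-09). Tenm3, a teneurin adhesion protein, ranged from 4.45 to 5.71 in males and from 7.03 to 7.46 in females and differed by -2.09 (SE 0.16, adjusted p = 8.8e-06). For all 3 genes the sexes were fully apart.

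Cytochromes P450 of the Cyp2b and Cyp2c families stayed higher in females in part. Cyp2b13 ranged from 5.36 to 7.42 in males (median 5.57) and from 9.88 to 10.93 in females (median 10.43), a difference of -4.34 (SE 0.25, adjusted p = 2.9e-07), and was the called member of 5 measured in its family. In the Cyp2c family 4 of 14 members were higher in females and 1 in males. Cyp2c40 ranged from 3.94 to 6.67 in males (median 5.37) and from 8.43 to 9.70 in females (median 9.22), a difference of -3.74 (SE 0.34, adjusted p = 6.3e-05). Cyp2c69 differed by -2.58 (SE 0.29, adjusted p = 0.00053), Cyp2c37 by -1.54 (SE 0.23, adjusted p = 0.0074) and Cyp2c29 by -0.91 (SE 0.11, adjusted p = 0.0013). Cyp2c54 went the other way, at 6.18 to 8.17 in males and 5.26 to 6.18 in females, a difference of 1.54 (SE 0.27, adjusted p = 0.019). The Cyp2c54 call did not survive the loss of any 1 of 4 of the 12 arrays (adjusted p up to 0.0599). Of the steroid hydroxylases Cyp2a22 and Cyp2a4, the first differed by -1.14 (SE 0.14, adjusted p = 0.0013) and the second by -0.77 (SE 0.15, adjusted p = 0.035), the call of Cyp2a4 being lost when any 1 of 9 arrays was left out (adjusted p up to 0.0976). Cyp3a44 was the called member of 8 in the Cyp3a family at -1.40 (SE 0.24, adjusted p = 0.019), with overlapping arrays and a call lost when any 1 of 6 arrays was left out (adjusted p up to 0.0575).

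Some transporters, thioesterases and genes of lipid uptake were higher in females, while most members of these lists did not pass. Of 32 organic anion and cation transporters, 5 were higher in females and 1 in males (the bile acid transporter Slc10a2). The female count rested on single arrays: of Slc22a27, Slc22a26, Slc22a29, Slco2a1 and Abcb1a, the first alone kept its call without HepCAV1wt MCD male replicate 1 or 2, HepCAV1wt MCD female replicate 2, HepCAV1ko MCD male replicate 2 or HepCAV1ko MCD female replicate 3, and 2 or 3 of the 5 did without any 1 of 6 other arrays. Slc22a27, of the organic anion transporter family, ranged from 4.57 to 7.34 in males and from 8.34 to 8.68 in females and differed by -2.31 (SE 0.34, adjusted p = 0.0063). Its neighbour Slc22a26 differed by -2.28 (SE 0.43, adjusted p = 0.035), a call lost when any 1 of 10 arrays was left out (adjusted p up to 0.102), with male values from 5.36 to 8.16. Of 24 genes of acyl-CoA thioesterases and peroxisomal oxidation, 5 were higher in females, 0 in males, and the list's median was -0.29. Acot3, a peroxisomal thioesterase, ranged from 5.97 to 7.70 in males (median 6.76) and from 7.78 to 9.08 in females (median 8.64), a difference of -1.81 (SE 0.28, adjusted p = 0.0086). Acot2, its mitochondrial relative, differed by -1.13 (SE 0.19, adjusted p = 0.015), and the carnitine acetyltransferase Crat and the peroxisome proliferation factor Pex11a by -0.70 and -0.60. Acot2 missed the threshold (adjusted p = 0.054) when HepCAV1wt MCD male replicate 2 was left out, Crat when any 1 of 9 arrays was left out (adjusted p up to 0.095) and Pex11a when any 1 of 5 was (adjusted p up to 0.0792).

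Of 32 genes of lipid droplets, lipid uptake and lipolysis, 3 were higher in females. Vldlr, the receptor of very low density lipoprotein, ranged from 2.97 to 4.35 in males (median 3.37) and from 4.57 to 5.90 in females (median 5.21), a difference of -1.80 (SE 0.23, adjusted p = 0.0014). Plin4, a lipid droplet coat protein, ranged from 5.25 to 5.70 in males (median 5.46) and from 6.24 to 7.02 in females (median 6.47) and differed by -1.10 (SE 0.14, adjusted p = 0.0013). The fatty acid transporter Cd36 ranged from 9.02 to 9.97 in males and from 10.25 to 10.50 in females and differed by -0.81 (SE 0.15, adjusted p = 0.029), a call lost when any 1 of 9 arrays was left out (adjusted p up to 0.0811). Pparg, the nuclear receptor that drives lipid storage, was chosen after its values were seen. It ranged from 5.34 to 5.79 in males (median 5.51) and from 6.38 to 7.14 in females (median 6.91), a difference of -1.33 (SE 0.14, adjusted p = 0.00018).

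Promoters from RefSeq were read for the genes that were sex-biased in the same direction on both diets. A promoter was matched by gene ID for 15 of 23 such male-biased and 29 of 35 such female-biased genes, and for 17616 of all autosomal genes. The STAT5 motif TTCNNNGAA, which reads the same on both strands, lay within 250 bases before to 50 bases after the start of 3 of the 15 (20%), 4 of the 29 (13.8%) and 1431 of the 17616 (8.12%). The male-biased genes with a match were C8a, Nox4 and Keg1, and the female-biased ones were A1bg, Slc22a26, Tenm3 and Sult3a1. Among all genes called on MCD the shares were 3 of 26 higher in males (11.5%) and 4 of 44 higher in females (9.09%). Among genes called on the control diet alone they were 14 of 218 (6.42%) and 14 of 265 (5.28%). The shares of the called genes rest on few matches, and their differences were not tested. The 250 bases before the start are shown, 5′ to 3′ on the strand of the gene, for the 3 matched genes of each direction with the largest difference on MCD, which lets promoters of strongly male-biased and female-biased genes be compared, with the motif in capitals (RefSeq, GRCm38.p6). The only match among these 6 starts 84 bases before the A1bg start, and the other 5 have no such letters in this window.
Hsd3b5, chr3:98645535-98645784, minus strand: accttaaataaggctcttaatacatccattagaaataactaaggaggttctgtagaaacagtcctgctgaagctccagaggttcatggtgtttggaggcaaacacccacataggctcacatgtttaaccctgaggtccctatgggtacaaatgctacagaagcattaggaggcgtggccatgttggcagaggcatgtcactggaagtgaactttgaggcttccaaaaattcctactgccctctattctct
C6, chr15:4726960-4727209, plus strand: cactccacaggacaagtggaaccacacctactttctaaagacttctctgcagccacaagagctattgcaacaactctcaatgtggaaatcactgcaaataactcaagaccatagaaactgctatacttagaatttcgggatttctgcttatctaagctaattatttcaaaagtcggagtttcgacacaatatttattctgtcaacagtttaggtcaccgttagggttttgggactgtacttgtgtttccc
Cyp2d9, chr15:82452127-82452376, plus strand: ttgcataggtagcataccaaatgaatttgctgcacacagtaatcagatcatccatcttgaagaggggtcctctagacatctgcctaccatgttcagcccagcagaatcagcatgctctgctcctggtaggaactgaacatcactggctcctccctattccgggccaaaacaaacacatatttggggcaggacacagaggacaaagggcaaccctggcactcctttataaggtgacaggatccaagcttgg
A1bg, chr15:60921271-60921520, minus strand: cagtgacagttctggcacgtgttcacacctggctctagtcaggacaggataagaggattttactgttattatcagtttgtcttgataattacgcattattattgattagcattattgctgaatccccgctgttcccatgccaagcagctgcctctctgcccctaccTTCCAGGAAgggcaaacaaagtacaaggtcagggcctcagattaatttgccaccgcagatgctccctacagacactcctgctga
Cyp2b13, chr7:26061245-26061494, plus strand: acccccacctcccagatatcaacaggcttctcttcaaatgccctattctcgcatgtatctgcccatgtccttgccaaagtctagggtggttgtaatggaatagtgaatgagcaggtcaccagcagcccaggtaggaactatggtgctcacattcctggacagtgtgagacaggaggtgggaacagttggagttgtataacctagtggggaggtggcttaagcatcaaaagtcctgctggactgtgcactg
Sult2a5, chr7:13623717-13623966, plus strand: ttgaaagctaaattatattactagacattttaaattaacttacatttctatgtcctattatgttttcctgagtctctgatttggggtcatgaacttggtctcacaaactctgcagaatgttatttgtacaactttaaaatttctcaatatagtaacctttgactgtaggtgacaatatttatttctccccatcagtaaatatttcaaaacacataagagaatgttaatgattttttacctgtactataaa

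Of the 89 genes, 58 had also passed on the control diet with the same direction (23 higher in males and 35 in females), and 0 passed on both diets with opposite directions. These 58 kept genes were 65.2% of the MCD calls and 8.45% of the control calls, with 7.64% of the male-biased and 9.09% of the female-biased control calls, and 0.245% of all genes. Of the genes with a strong sex bias on the control diet, 8 of 13 genes that were at least 8-fold higher in control-fed males (61.5%) and 14 of 24 in control-fed females (58.3%) were also called on MCD. The median difference of the kept male-biased genes was 1.27 on MCD and 2.11 on the control diet, and that of the kept female-biased genes was -1.54 and -2.14, against 0.01 on both diets for all genes. No array was shared between the fits on the 2 diets.

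**Figure D2:**
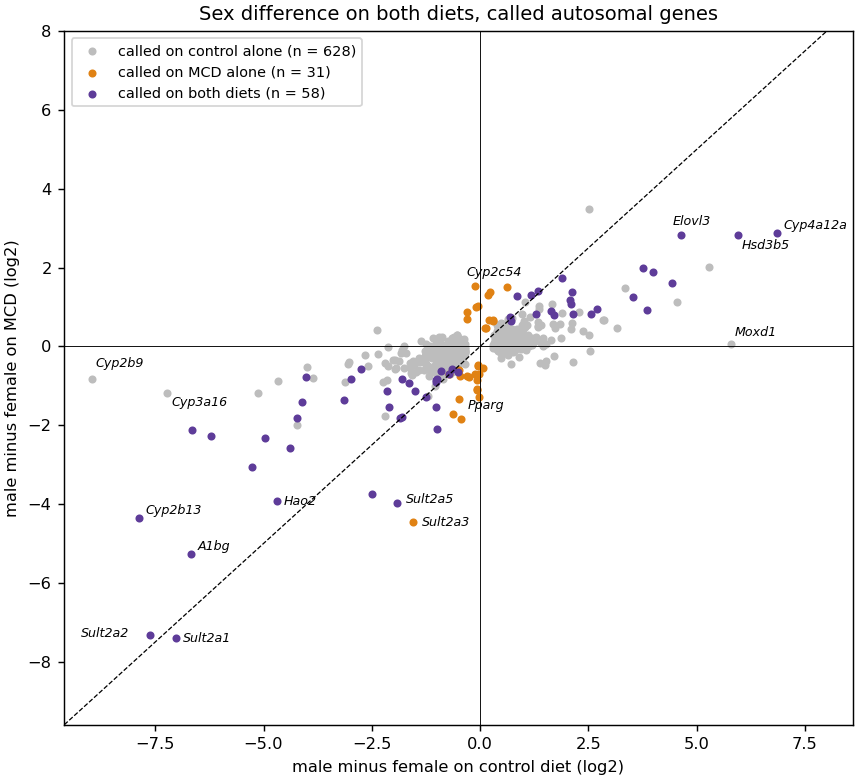
Male minus female difference (log2) on the control diet (x axis) and on MCD (y axis) for autosomal genes called on control alone (grey, 628), on MCD alone (orange, 31) or on both diets (purple, 58), with a dashed line of equal difference. Sult2a1 and Sult2a2 lie near the line, while Cyp2b9 and Moxd1 lie near 0 on MCD.

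In the direct test of the difference between the diets (diet by sex interaction, called in 131 genes or 0.554%), 20 of the 58 kept genes had a smaller sex difference on MCD, 1 had a larger one and 37 did not pass. Cyp4a12a fell from a difference of 6.87 on the control diet to 2.87 on MCD (interaction adjusted p = 7.2e-05). Hsd3b5 fell from 5.95 to 2.82 (adjusted p = 0.0061), Cyp2d9 from 4.43 to 1.61 (adjusted p = 1.4e-05), C6 from 4.00 to 1.90 (adjusted p = 2.6e-06) and Cyp7b1 from 3.75 to 1.99 (adjusted p = 0.0032). In these 5 genes the means of males were lower on MCD than on the control diet, for Cyp4a12a 5.31 ± 1.11 (SD, n = 6) against 9.07 ± 0.80. Female means were lower on MCD too in Hsd3b5 (2.24 against 3.93), Cyp7b1 (6.32 against 7.46) and C6 (6.23 against 6.88). They were higher on MCD in Cyp4a12a (2.44 against 2.21) and Cyp2d9 (6.85 against 5.50). The MCD female means of Hsd3b5 and Cyp4a12a lay under the median gene (3.83), where a difference may be understated. On the female side Cyp2b13 went from -7.88 to -4.34 (adjusted p = 4.7e-07), with a mean in males of 2.58 on the control diet and 6.01 ± 0.86 on MCD, and means in females of 10.46 and 10.35. Cyp2a4 went from -4.03 to -0.77 (adjusted p = 3.3e-07) with means in males of 7.12 and 11.07. Sult3a1 went from -6.66 to -2.11 (adjusted p = 3.9e-05), with the change in females, whose mean was 8.48 on the control diet and 3.96 ± 1.30 on MCD.

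The direction of these shifts was shared over the genes with a smaller sex difference of the same sign on MCD. Of 37 such genes that were male-biased on the control diet, all 37 had a lower mean in MCD males than in control-fed males, with a median shift of -1.38 in males and -0.05 in females. Of 51 that were female-biased, 48 had a higher mean in MCD males, with a median shift of 1.55 in males and -0.10 in females. These genes were selected by the interaction, so that the shifts describe them and are no further test.

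**Figure D3:**
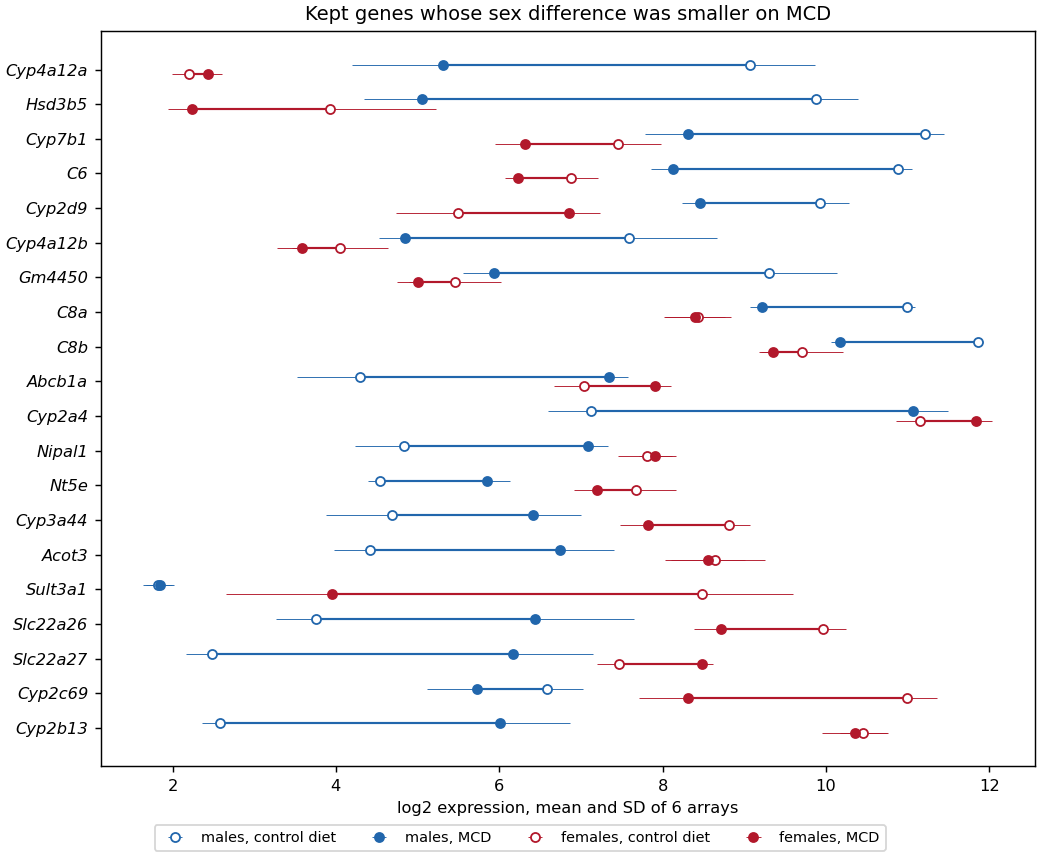
Mean and SD of 6 arrays (log2 expression, x axis) in males (blue) and females (red) on the control diet (open) and on MCD (filled) for the 20 kept genes whose sex difference was smaller on MCD. Male means of Cyp4a12a moved from 9.07 to 5.31 and those of Cyp2b13 from 2.58 to 6.01, towards the female means.

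Sult2a1, Sult2a2, A1bg, Hao2 and Vldlr had sex differences for which no change with diet was called. Sult2a1 differed by -7.02 on the control diet and -7.40 on MCD (interaction adjusted p = 0.9), Sult2a2 by -7.62 and -7.33 (adjusted p = 0.92), Hao2 by -4.68 and -3.93 (adjusted p = 0.39) and A1bg by -6.67 and -5.26 (adjusted p = 0.065). Vldlr differed by -1.79 and -1.80 (adjusted p = 1). Egfr, at 1.33 and 1.41, Scara5, at 1.90 and 1.73, and Cyp2c29, at -1.03 and -0.91, were also close on the diets (adjusted p of 0.93 to 0.97). The interaction fit leaves room for differences in these genes that these arrays could not detect. Sult2a5 was the kept gene with a larger difference on MCD, -3.98 against -1.92 (adjusted p = 0.0046), its mean in females being 6.16 ± 0.31 on MCD and 4.16 on the control diet.

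A further 628 genes passed on the control diet and not on MCD, and for 93 of them the interaction passed. Of these 93, 25 had the opposite sign on MCD, without a call there. Cyp2b9, which had the largest sex difference on the control diet, was among the 93 and kept its sign. It ranged from 10.11 to 11.31 in MCD males (median 10.56) and from 11.26 to 11.66 in MCD females (median 11.39), so that arrays overlapped, and differed by -0.82 (SE 0.17, adjusted p = 0.064) against -8.97 on the control diet (interaction adjusted p = 4.4e-12). Its mean in males was 2.94 on the control diet. Moxd1, a monooxygenase-like protein of male liver, differed by 5.79 on the control diet and ranged from 2.29 to 2.62 in MCD males and from 2.20 to 2.66 in MCD females, a difference of 0.07 (adjusted p = 0.92, interaction adjusted p = 1e-09). Cyp3a16 differed by -7.23 on the control diet and -1.17 on MCD (adjusted p = 0.48, interaction adjusted p = 1.3e-07). Its female MCD values ran from 1.89 to 5.29, against 1.79 to 2.22 in males. Cyp2c38 (-5.14 and -1.17), Cyp4a14 (-4.66 and -0.88) and the steroid hydroxylase Cyp17a1 (-3.86 and -0.79) also had smaller differences on MCD, with interaction adjusted p of 7.6e-06, 0.024 and 0.00073. So did the glutathione transferase Gstp1 (2.52 and 0.28, adjusted p = 7.2e-06) and the corepressor Trim24 (-2.13 and -0.49, adjusted p = 6.2e-06). For the other 535 the interaction did not pass, so that a change with diet is not shown, and 512 of the 628 (81.5%) kept their sign on MCD, with medians of 0.15 for the male-biased and -0.19 for the female-biased genes.

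Slco1a1, an organic anion transporter of male liver, was not called on MCD and varied widely among females. It was at 10.84, 10.66 and 3.25 in HepCAV1wt MCD females and at 4.48, 3.86 and 3.51 in HepCAV1ko MCD females, while the 6 male arrays ran from 8.67 to 11.13. The difference was 3.49 (SE 1.19, adjusted p = 0.42). Mup21, of the major urinary proteins, ranged from 5.54 to 6.80 in males and from 2.61 to 5.07 in females, a difference of 2.03 (SE 0.41, adjusted p = 0.056) against 5.30 on the control diet.

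Of the 31 genes called on MCD alone, 8 passed the interaction, 5 higher in males and 3 in females, and 25 had the same sign on the control diet. Cyp2c54, at 1.54 on MCD, differed by -0.12 on the control diet (interaction adjusted p = 0.028), with means of 9.43 and 9.56 in control-fed males and females and 7.27 and 5.73 on MCD. Mup3, a pheromone carrier secreted into urine, ranged from 11.40 to 12.33 in MCD males (median 11.80) and from 9.87 to 10.90 in MCD females (median 10.66). It differed by 1.31 (SE 0.20, adjusted p = 0.0066) against 0.19 on the control diet (interaction adjusted p = 0.0044). On the control arrays Mup3 ranked from 2 to 10 among all 25428 features, and 7 of the 12 arrays held the same value of 13.28. The cause of this shared value was not tested. A sex difference there may be compressed, so that neither the absence of a call on the control diet nor the change with diet can be read for Mup3. Sult2a3 differed by -4.46 on MCD and -1.55 on the control diet, where it did not pass (adjusted p = 0.07, interaction adjusted p = 0.012). Plin4 differed by -1.10 and -0.07 (interaction adjusted p = 0.012), with means of 4.19 and 4.26 in control-fed males and females and 5.47 and 6.57 on MCD. The prostaglandin F receptor Ptgfr ranged from 3.65 to 4.05 in MCD males and from 4.83 to 5.98 in MCD females, a difference of -1.27 (SE 0.17, adjusted p = 0.0021) against -0.02 (interaction adjusted p = 0.0037). Pparg was called on MCD alone too (-0.49 on the control diet), but its interaction did not pass (adjusted p = 0.28).

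The other 3 genes of this kind act on chromosomes and were higher in MCD males. Esco2, an acetyltransferase of cohesin, ranged from 3.00 to 3.83 in males and from 1.98 to 2.69 in females and differed by 1.01 (SE 0.16, adjusted p = 0.012) against -0.10 on the control diet (interaction adjusted p = 0.0057). Fignl1, an ATPase of recombination, differed by 0.88 against -0.31 (adjusted p = 0.0051), and Dsn1, of the kinetochore, by 0.70 against -0.30 (adjusted p = 0.0038). Their levels were low, and the MCD call of Fignl1 was lost when any 1 of 6 arrays was left out (adjusted p up to 0.0853) and that of Dsn1 when HepCAV1wt MCD male replicate 2 was (adjusted p = 0.0674). Of 37 listed genes of DNA replication and mitosis, 0 were called on MCD, while 22 were higher in males at an unadjusted p under 0.05 and 0 higher in females, against 4.22% of all genes. The list's median was 0.32 on MCD and -0.17 on the control diet. The members ranged from -0.10 to 1.01, with Mcm5, of the replicative helicase, at 0.93 (adjusted p = 0.099) and Top2a at 0.90 (adjusted p = 0.11). The mean level of the list was 4.75 to 5.07 in the male and 4.17 to 4.85 in the female MCD arrays, so that arrays overlapped.

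Of the 89 genes, 44 were in a functional list and 41 in no list. On the control diet the sulfotransferases had 1 gene higher in males and 9 in females (1 and 6 on MCD), the Cyp2c family 1 and 8 (1 and 4), complement 7 and 1 (3 and 0), the transporters 4 and 7 (1 and 5) and the thioesterases and peroxisomal enzymes 4 and 6 (0 and 5). Among the lists with calls on the control diet and 0 on MCD were the UDP-glucuronosyltransferases (5 of 16, all higher in males), the glutathione S-transferases (5 of 22), the flavin monooxygenases (3 of 6) and the interferon-inducible genes (4 of 23). The chemokine transcript Cxcl11, in no list, was higher in females on MCD (-0.70, adjusted p = 0.022) and on the control diet (-0.71). Its MCD call was kept in 7 of 12 fits with 1 array left out (adjusted p up to 0.0745). At an unadjusted p under 0.05 on MCD these 4 lists had 4 of 16 (all higher in males), 4 of 22 (1 higher in males and 3 in females), 1 of 6 (higher in females) and 5 of 23 genes (1 and 4). The shares of all genes were 4.22% higher in males and 4.09% in females. Bile acid synthesis had 1 of 21 genes called on MCD (Cyp7b1), lipogenesis and elongation 1 of 28 (Elovl3) and steroid dehydrogenases and reductases 2 of 28 (Hsd3b5 and, at -0.65, Rdh9, which missed the threshold when any 1 of 9 arrays was left out). Mitochondrial beta-oxidation, cholesterol synthesis, acute phase proteins, urea cycle and amino acid breakdown and NRF2 targets had 0 calls on MCD. On the control diet they had 2, 0, 1, 2 and 2, and their medians on MCD lay between -0.11 and 0.21. At an unadjusted p under 0.05 on MCD they had 6 of 19 (all higher in females), 2 of 18 (both higher in males), 4 of 24, 0 of 33 and 4 of 26 genes. The acute phase and NRF2 lists each had 2 in each direction. Of all genes 8.31% passed this threshold. Of 34 male-biased liver genes taken from the literature, 13 were higher in males on MCD (26 on the control diet), and of 62 female-biased ones 22 were higher in females (47) and 1 in males.

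**Figure D4:**
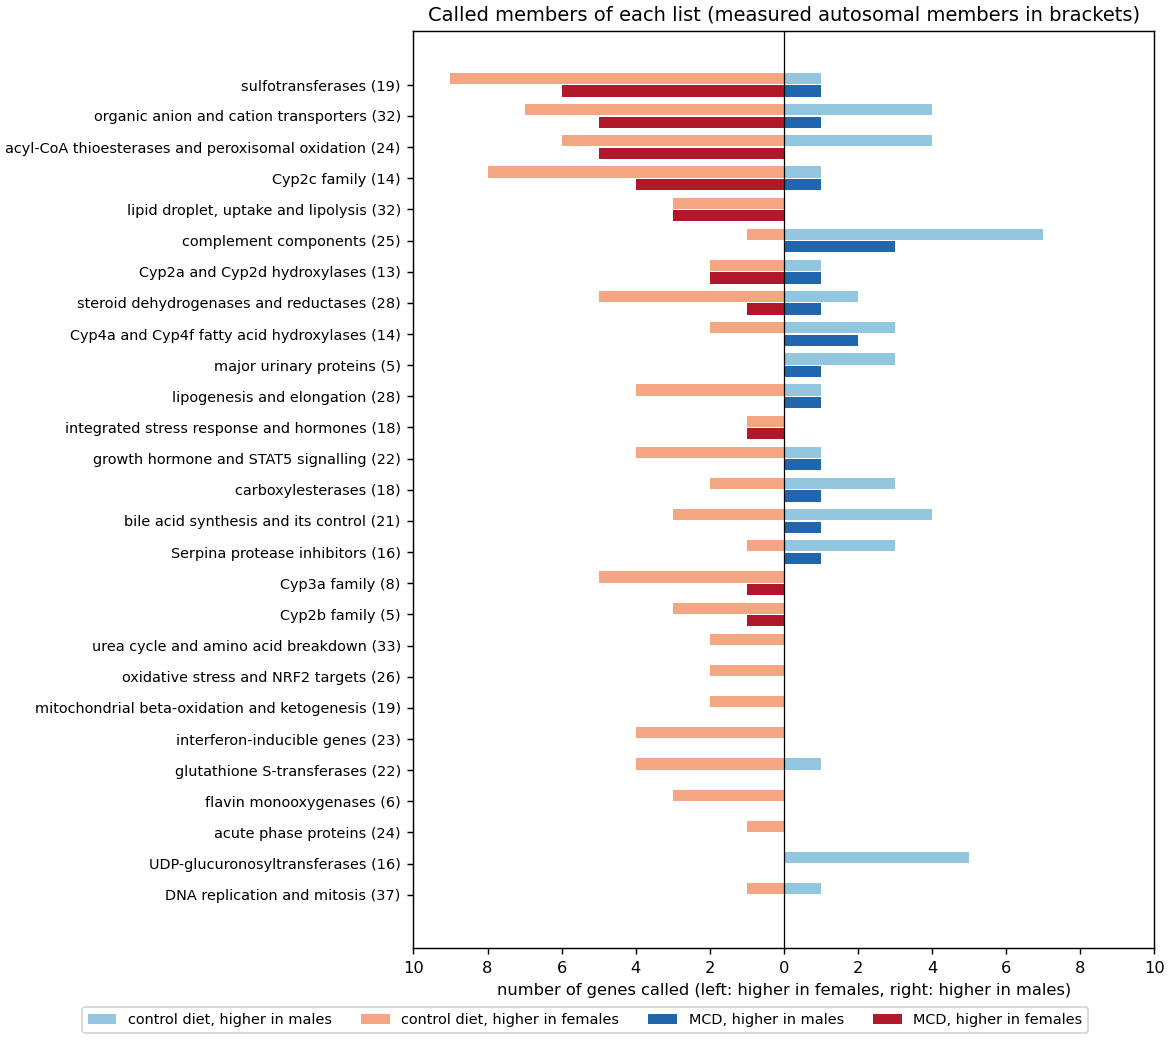
Number of genes called in each functional list with a call on either diet (x axis, left of 0 higher in females and right of 0 higher in males) on the control diet (pale bars) and on MCD (dark bars), with the number of measured autosomal members in brackets. Sulfotransferases had 6 genes higher in females on MCD and 9 on the control diet.

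Lists of cell type markers showed 0 calls between the sexes on MCD (limma), while 3 of 9 Kupffer cell markers, 2 of 14 stellate cell and fibrosis markers and 1 each of the macrophage, T and NK cell and B cell markers had been higher in females on the control diet. At an unadjusted p under 0.05 on MCD, 0 of 12 hepatocyte, 0 of 9 Kupffer cell, 1 of 14 lipid-associated macrophage, 3 of 14 stellate cell and 1 of 10 sinusoidal endothelial markers differed, against 8.31% of all genes. The same held for 2 of 7 cholangiocyte and 2 of 9 exocrine pancreas markers, all higher in males, and for 2 of 9 B cell markers, both higher in females. The median difference of the endothelial list was -0.26 and its mean level was 7.14 to 8.02 in male and 7.75 to 8.05 in female arrays. The levels overlapped for the Kupffer cell list (6.63 to 7.23 and 6.67 to 7.34) and the macrophage list (6.30 to 7.80 and 6.18 to 8.06). Of the T and NK cell markers 9 of 12, of the neutrophil markers 9 of 10 and of the exocrine pancreas markers 5 of 9 lay under the median gene. The part of cell composition in the sex differences was not tested.

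All 89 genes had the same sign in both genotypes, which their selection on the average of these arrays largely fixes. Within HepCAV1wt alone 21 of the 89 calls were kept, and within HepCAV1ko alone 22. In HepCAV1wt and HepCAV1ko mice the differences were -7.37 and -7.43 for Sult2a1, 3.47 and 2.26 for Cyp4a12a, 3.38 and 2.28 for Elovl3 and -4.34 and -6.18 for A1bg. A test of the difference between the genotypes called 0 genes (limma). At an unadjusted p under 0.05 it had 1144 of 23657, close to the share that this threshold lets through where no gene differs. The calls within 1 genotype, with 3 arrays per sex, were fewer (10 higher in males and 13 in females in HepCAV1wt, 12 and 19 in HepCAV1ko).

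**Figure D5:**
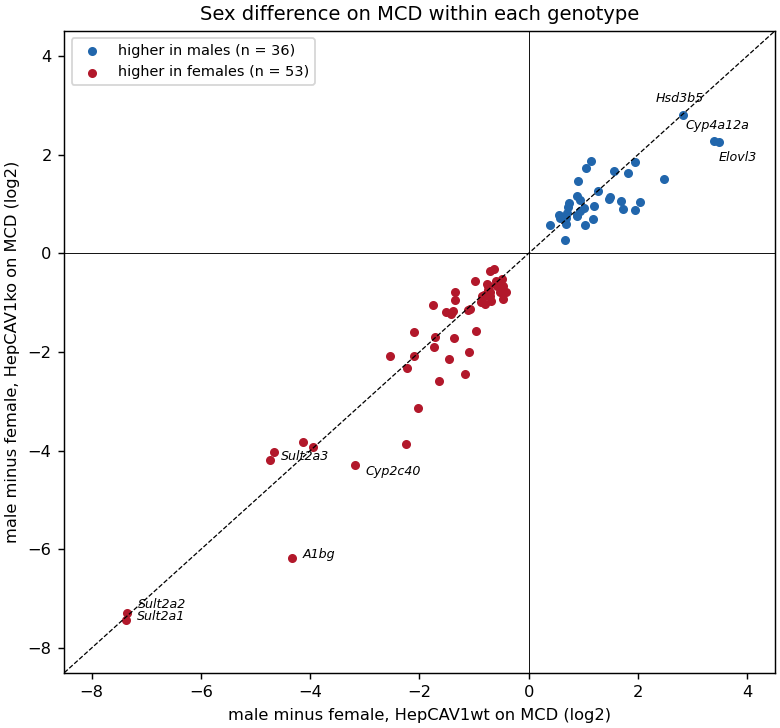
Male minus female difference on MCD (log2) in HepCAV1wt (x axis) and HepCAV1ko mice (y axis) for the 36 genes higher in males (blue) and the 53 higher in females (red), with a dashed line of equal difference. All 89 points lie in the quadrants where the genotypes have the same sign, from Sult2a1 at -7.37 and -7.43 to Cyp4a12a at 3.47 and 2.26.

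Some of the called genes lie near each other in the genome, a pattern whose share over all genes was not computed. Close relatives among them (the Sult2a, Cyp4a12, Cyp2c and Mup genes) may share array signal, which was not tested. Of the 89, 35 had another called gene among the 10 tested genes to either side. On chromosome 7 these were Sult2a5, Sult2a2, Sult2a1, Sult2a3 and Sult2a8, and Cyp2b13 with Cyp2a4 and Cyp2a22. On chromosome 19, where 11 of 781 tested genes were called (1.41%), they were the Slc22a and the Cyp2c genes. Neighbours did not always share a direction. Sult2a8 and Cyp2c54 were higher in males beside called genes that were higher in females, Mup3 was higher in males (1.31) and Mup-ps12 in females (-1.82), and Hsd3b5 and Gm4450 were higher in males (2.82 and 0.94) beside Hao2 (-3.93). The calls of Gm4450 and Mup-ps12 were lost without HepCAV1wt MCD male replicate 2, among others for Mup-ps12 (adjusted p up to 0.0517 and 0.0619).

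Further called genes are named here after their values were seen. The ecto-nucleotidase Nt5e (CD73) ranged from 5.43 to 6.20 in MCD males and from 7.02 to 7.75 in MCD females and differed by -1.35 (SE 0.15, adjusted p = 0.00051) against -3.13 on the control diet (interaction adjusted p = 5.9e-05). Prom1, a progenitor cell surface protein, differed by -1.54 (SE 0.26, adjusted p = 0.014) and the magnesium transporter Nipal1 by -0.83 (SE 0.12, adjusted p = 0.0044). Corin, a protease of natriuretic peptides, differed by -0.74 (SE 0.10, adjusted p = 0.0025), and Cavin2, a coat protein of caveolae, by -0.75 (SE 0.13, adjusted p = 0.015), a call that HepCAV1wt MCD male replicate 2 decided, since p rose to 0.051 after adjustment with that array left out. The drug efflux pump Abcb1a was just inside the threshold (-0.57, adjusted p = 0.0497), as Sult3a1 and Olfr811 were (0.0423 and 0.0431), while Mir103-2, Robo1 and Kitl were just outside it (0.0503, 0.0504 and 0.0517). Leaving out each of the 12 MCD arrays in turn kept the call of 52 of the 89 genes every time, 23 higher in males and 29 in females, and 40 of these 52 were kept on both diets.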

How the data were processed

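Total RNA of whole liver was hybridised to Affymetrix MoGene 2.0 ST arrays. The authors summarised the probes with RMA, and the deposited log2 values, 1 per gene-level feature, were used as given. RMA gives all arrays 1 distribution, so a shift shared by all genes would not be seen. No source used here names the genome build behind the features. Of 25428 features, 24705 had a gene symbol (723 had none), and 24704 genes were tested after the brighter of 2 features of 1 symbol was taken. Symbols, chromosomes and promoters were matched by gene ID to RefSeq (GRCm38.p6).

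limma 3.58.1 in R 4.3.3 fitted sex and genotype to the 12 MCD arrays (9 residual degrees of freedom) and, separately, to the 12 control-diet arrays. A fit of 8 group means to all 24 arrays gave the diet by sex interaction, averaged over genotypes. P-values were two-sided and adjusted by Benjamini-Hochberg over all 24704 genes, and calls (adjusted p under 0.05) were counted over the 23657 autosomal ones. The fits were tested on simulated data. The labels do not say that each array is a mouse of its own, so the p-values reflect array-to-array spread, which may be technical, and the number of arrays limits the precision.

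The members and gene lists were chosen with earlier results of these data known. Genes were named by rule: the 15 with the largest difference in each direction whose arrays did not overlap, up to 4 called and 2 lost members of each list, the 8 with the largest fall in sex difference from control to MCD that passed the interaction, the 8 called on MCD alone that passed it, and any gene that passed the sex by genotype test. Not every gene that met the rule is described. Nat8 (a difference of 1.51 on MCD) and Nat8f5 (1.38), both among the 15 higher in males, are left out elsewhere. Genes outside the rule (Pparg, Nt5e, Prom1, Nipal1, Corin, Cavin2, Abcb1a, Slco2a1, Olfr811, Mir103-2, Robo1, Kitl, Nox4, Keg1, Cyp2c29, Pex11a, Gm4450, Mup-ps12, Cxcl11, Mcm5 and Top2a) were chosen after their values were seen. Alternatives covered the fit, the filter, the scaling, variances, the methods' t-test, replicate numbers as a block and each array left out.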

Additional observations from a re-analysis of the deposited data

Results flagged for a closer look

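In 6 of 188 sets of 6 MCD arrays (a gene in 1 sex), 1 array stood far from the rest by Dixon's criterion, which chance meets in about 1 of 20 sets. C6 was at 8.66 in HepCAV1wt MCD male replicate 1, against 7.96 to 8.18 in the other males. Vldlr was at 4.35 in HepCAV1ko MCD male replicate 3, against 2.97 to 3.46. In females, Hao2 was at 6.78 in HepCAV1ko MCD female replicate 3 (the others from 5.62 to 5.98), and Ptgfr was at 5.98 in the same array (4.83 to 5.22). Nt5e was at 7.75 in HepCAV1wt MCD female replicate 2 (7.02 to 7.23), and Cyp3a44 at 7.17 in HepCAV1ko MCD female replicate 1 (7.77 to 8.07). The call of Cyp3a44 was lost when any 1 of 6 of the 12 arrays was left out, while those of the other 5 genes were kept without any 1 array.

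Of 94 genes examined, 34 had sex differences that differed between the diets in the interaction test. The values are the male minus female difference on MCD minus that on the control diet. Among genes higher in males on both diets these were Cyp4a12a (-4.00), Hsd3b5 (-3.13), Gm4450 (-2.91), Cyp2d9 (-2.82), Cyp4a12b (-2.26, adjusted p = 0.049), C6 (-2.10), Cyp7b1 (-1.76), C8a (-1.73) and C8b (-1.34), and the difference of Moxd1, called on the control diet alone, was -5.72. Among genes higher in females on both diets they were Sult3a1 (4.55), Slc22a26 (3.93), Cyp2b13 (3.54), Cyp2a4 (3.26), Cyp3a44 (2.72), Slc22a27 (2.67), Acot3 (2.41), Abcb1a (2.18), Nipal1 (2.14), Cyp2c69 (1.82) and Nt5e (1.78), with Sult2a5 the other way (-2.06). Of those called in females on the control diet alone, Cyp2b9 was at 8.15, Cyp3a16 at 6.06, Cyp2c38 at 3.96 and Cyp4a14 at 3.78. Of those called on MCD alone, Cyp2c54 was at 1.66, Fignl1 at 1.19, Mup3 at 1.12, Esco2 at 1.11 and Dsn1 at 1.00, higher in males, and Sult2a3 at -2.91, Ptgfr at -1.25 and Plin4 at -1.03, higher in females. The value of Mup3 cannot be read as a change with diet, since 7 of the 12 control arrays held the same value of 13.28 near the top of the scale.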

How the results depend on the processing

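The counts of genes higher in males (36), in females (53), kept on both diets (58) and passing the diet by sex interaction (131) stayed within 1.5 times under a filter at the median level, adjustment over autosomal genes alone, both rescalings, array weights and trended variances. With replicate numbers as a block they were 36, 56, 60 and 119, and 12 of the 89 calls were lost. Same-numbered male and female arrays had deviations correlated at -0.06 to 0.22, and 5 of 6 male arrays were closest to their own number. The labels do not say what a number marks, and the main fit did not use it. What same-numbered arrays had in common was not tested. One fit over all 24 arrays gave 63 genes higher in males, 62 in females and 73 kept. HepCAV1wt arrays alone gave 10, 13, 16 and 32, and HepCAV1ko arrays alone 12, 19, 18 and 30. A log2 difference of at least 1 left 20, 30 and 35, kept genes needing it on both diets. The methods' t-test gave 15, 23 and 22 after Benjamini-Hochberg and 1056, 907 and 508 at their unadjusted threshold, with no interaction value. It was run here on both genotypes together without a genotype term, while the study compared the sexes within each genotype. Without 1 array the counts ran from 25 to 39, 33 to 57, 42 to 63 and 102 to 134, the first 3 lowest without HepCAV1wt MCD male replicate 2. The sex by genotype count was 0 under 4 alternatives added after the data were seen. None of the 89 genes changed direction under any alternative. Dim genes limit what can be called, since no detection call was used and 76 of the 89 lay above the median gene.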
